A study of Homo sapiens with 32 samples.

Results

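Silver nanoparticles coated with branched polyethylenimine (bPEI) were compared with medium alone after 6 h in HepG2 cells. The comparison used the 3 bPEI libraries (replicates A, B and C) and the 3 medium libraries (NoNP, replicates A, B and C) of that time, 6 of the 32 libraries of the series. It covered the 9324 of 13133 genes whose mean over all 32 libraries was at least 5 normalized reads. The bPEI group received silver particles at 1.2 ug/mL for 6 h, and the NoNP group received no particles. Particles coated instead with polyethylene glycol (PEG) or with citrate, at the same concentration, are used below for a comparison of coatings at 6 h (2 libraries each), and bPEI and NoNP libraries at 12 h (3 each) and 24 h (2 each) for comparisons of times. All groups are the same cell line. No genotype or further agent is given for any of them. One bPEI library, replicate B, stood apart from the other 5, so the comparison was made with and without it.

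HepG2 is an established line from a human liver tumour that still makes many plasma proteins of the hepatocyte. Silver particles taken up by cells pass through endosomes to lysosomes, the acidic compartments where macromolecules are broken down, and can release silver ions there. Silver ions bind thiol groups, and the pathways known to answer them are metallothionein induction, the heat shock response, the antioxidant programme driven by the transcription factor NRF2 and the integrated stress response, which slows translation and raises a small set of transcripts. The polymer bPEI is a branched polyamine with a positive charge in water, PEG is an uncharged polymer, and citrate gives a negative charge. In TempO-Seq, paired detector oligonucleotides bind a transcript in the cell lysate, are ligated and then sequenced, so a value reports 1 or a few short stretches of a transcript and not its whole length.

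The 3 NoNP libraries held 2599416, 1490319 and 5739074 reads and the 3 bPEI libraries 2287060, 1789522 and 5069416 reads (A, B and C). A library with 0 reads of a gene allows a level of up to 1.646 (NoNP C) to 6.464 (NoNP B) normalized reads, for counting error only. Rank correlations of bPEI replicate B with the other 5 libraries across the tested genes were 0.8174 to 0.8719, and each of the others reached 0.9569 to 0.9602 with its nearest library. In replicate B, 579 genes lay more than 1 log2 unit above and 1138 more than 1 below all other 5 libraries. In each of the others these counts were 27 to 59 and 100 to 266. Replicate B also had the most tested genes at 0, 540 against 164 to 341, and the lowest share of reads from the albumin gene ALB, 5.864% against 7.474% to 8.449%. The cause of its distance was not tested. Samples were collected in triplicate by the study's design, but whether A, B and C were separate cultures is not stated. The spread between replicates may therefore be technical. The limma p-values given below rest on that spread pooled over all groups of the series, and not on these samples alone.

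With all 3 bPEI libraries, 187 genes passed the threshold (limma adjusted p under 0.05), which is 2.01% of the tested genes. Of these, 64 were higher with bPEI (0.686%) and 123 lower (1.32%). Without replicate B, 6 genes passed, 1 higher and 5 lower, or 0.0644%. All 6 were among the 187 and had the same direction, so no other gene passed by limma in this comparison without replicate B. That count of 6 was 344 (130 higher, 214 lower) in a fit of those 5 libraries alone and 108 (35 higher, 73 lower) when NoNP replicate B of 24 h was left out too. With replicate B kept, leaving out NoNP replicate A, B or C gave 34, 11 and 26 calls, leaving out bPEI replicate A or C gave 553 and 569, and a fit of the 6 libraries alone gave 1. At an unadjusted p under 0.05 there were 1774 genes with replicate B and 861 without it. A second test, edgeR on whole reads, called 129 genes (61 higher, 68 lower), of which 122 were also called by limma in the same direction. Without replicate B edgeR called 7 genes, among them ACIN1, FKBP4 and LAMP2, which limma did not call there. With library totals made equal, 138 genes passed, 70 higher and 68 lower, so the excess of lower genes was not seen under that scaling. Both scalings called 131 genes in common, all in the same direction.

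**Figure D1:**
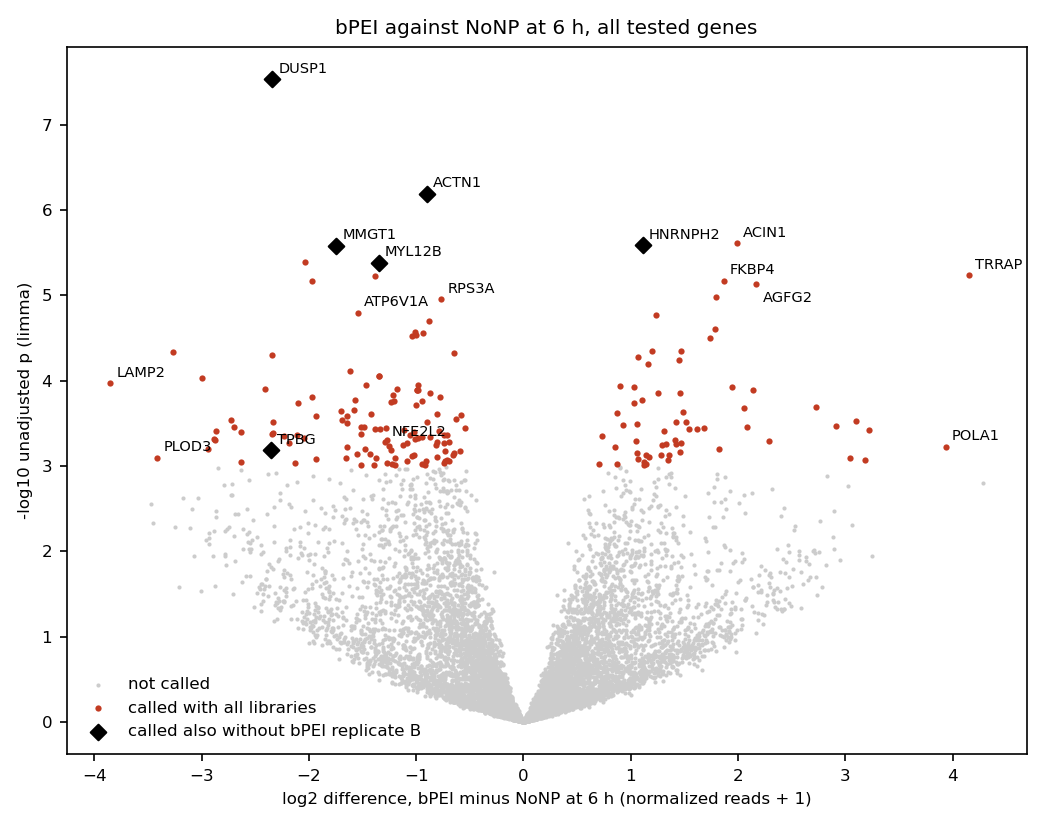
Each point is 1 of 9324 tested genes, with the log2 difference between bPEI and NoNP at 6 h on the x axis and -log10 of the unadjusted limma p on the y axis. The 187 called genes are in red and the 6 called also without bPEI replicate B are black diamonds; DUSP1 lies highest.

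The 3 bPEI libraries did not contribute alike to these calls. Over the 187 genes, the median log2 distance from the NoNP mean, taken in the direction of the call, was 0.9948 in replicate A, 1.896 in replicate B and 0.9767 in replicate C. Replicate B lay farthest in 156 of the 187. Over all tested genes the median absolute distance was 0.4237 in A, 0.8468 in B and 0.4243 in C. In 185 of the 187 genes every bPEI library lay beyond every NoNP library, where 12.9% of all tested genes had every bPEI library above and 11.9% every bPEI library below. With replicates A and C alone, the same was so of 17.6% above and 16.9% below. All 187 genes kept their sign without replicate B, and in 91 the log2 difference of A and C from NoNP was at least 1 in size. Since A and C had entered the calls, this is a description of the called genes and no second test.

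DUSP1, which encodes a nuclear phosphatase that switches off MAP kinases and is itself an immediate early gene, had the smallest p of all tested genes. It was at 387, 431 and 472 normalized reads in the NoNP libraries and at 84.8, 83.7 and 82.8 with bPEI. The bPEI libraries were nearly equal to each other, replicate B included, and far below every NoNP library. Since 1 read was worth 1.347, 1.709 and 0.5999 normalized reads in bPEI A, B and C, counting error exceeds the gaps between their levels. Their closeness is therefore no measure of precision. DUSP1 fell 5.13-fold, from 430 ± 42.3 to 83.8 ± 1.02 (SD, n = 3 each), a log2 difference of -2.34 (SE 0.32; limma adjusted p = 0.000271). Without replicate B the difference was again -2.34 (limma adjusted p = 0.00119), and edgeR gave an adjusted p of 0.000375. It passed the threshold under all 14 alternatives tried. Of 22 tested immediate early genes DUSP1 was the only one past the threshold, by limma with or without replicate B and by edgeR. Over all tested genes 1.32% were called lower by limma with replicate B. With replicate B, 6 of the 22 had an unadjusted limma p under 0.05 (1 higher, 5 lower), as did 1774 of the 9324 tested genes. The list median was above 0, at 0.269 with replicate B and 0.1866 without it, and 12 members were above 0 and 10 below with it. EGR1, a zinc finger factor of that list, was at 202, 94.8 and 147 in NoNP and 102, 8.55 and 118 with bPEI, and these groups overlapped.

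The upstream stretch of the DUSP1 promoter is shown because DUSP1 gave the firmest call. It comes from RefSeq (GRCh38.p14), chr5:172771283-172771335, minus strand, bases -140 to -88 from the annotated start. Capitals mark a full cAMP response element, TGACGTCA, at -125 to -118 and an E-box, CACGTG, at -108 to -103.
DUSP1: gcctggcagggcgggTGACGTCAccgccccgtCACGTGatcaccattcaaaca
Searched on both strands of the 250 bases upstream of a start, TGACGTCA was in 578 of 35116 RefSeq promoters (1.65%) and CACGTG in 2228 (6.34%). A match is a description of the letters, and no binding was measured.

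HNRNPH2, an RNA-binding protein that takes part in splicing, was the only gene that rose by limma both with and without replicate B. Its level was 305, 237 and 256 in NoNP and 634, 501 and 590 with bPEI. Every bPEI library lay above every NoNP library, and replicate B was the lowest of the 3. The rise was 2.16-fold, from 266 ± 35.4 to 575 ± 68.0 (SD, n = 3 each; limma adjusted p = 0.00484). Without replicate B the log2 difference went from 1.11 to 1.21 (limma adjusted p = 0.008).

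Both ACTN1 and MYL12B encode parts of the contractile actin system, alpha-actinin, which crosslinks actin filaments, and a regulatory light chain of non-muscle myosin. ACTN1 was at 5388, 5399 and 5868 in NoNP and 2720, 3365 and 2859 with bPEI. It fell 1.86-fold (log2 difference -0.90, SE 0.15; limma adjusted p = 0.00297), and by 0.99 on the log2 scale without replicate B (limma adjusted p = 0.00119). In this gene replicate B was the bPEI library nearest to NoNP. MYL12B was at 13070, 15701 and 14612 in NoNP and 8268, 2823 and 7771 with bPEI. Here replicate B was far below the other bPEI libraries, which were themselves below all NoNP libraries. The log2 difference was -1.35 with replicate B and -0.85 without it (limma adjusted p = 0.00549 and 0.0216). Both genes passed under 13 of the 14 alternatives.

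The last 2 of the 6 genes were less abundant. MMGT1, a subunit of the complex that inserts membrane proteins into the endoplasmic reticulum, was at 70.3, 60.3 and 57.1 in NoNP and 25.6, 15.4 and 14.4 with bPEI. It fell 3.39-fold with no overlap of the groups (limma adjusted p = 0.00484, and 0.0431 without replicate B). TPBG, a leucine-rich membrane glycoprotein, was at 16.6, 19.4 and 13.2 in NoNP and 0, 10.3 and 2.40 with bPEI. Replicate B was the highest bPEI library, and the call was firmer without it (log2 difference -3.22, limma adjusted p = 0.0169) than with it (-2.35, 0.0421). TPBG passed under 5 of 14 alternatives, and edgeR gave an adjusted p of 0.0958.

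**Figure D2:**
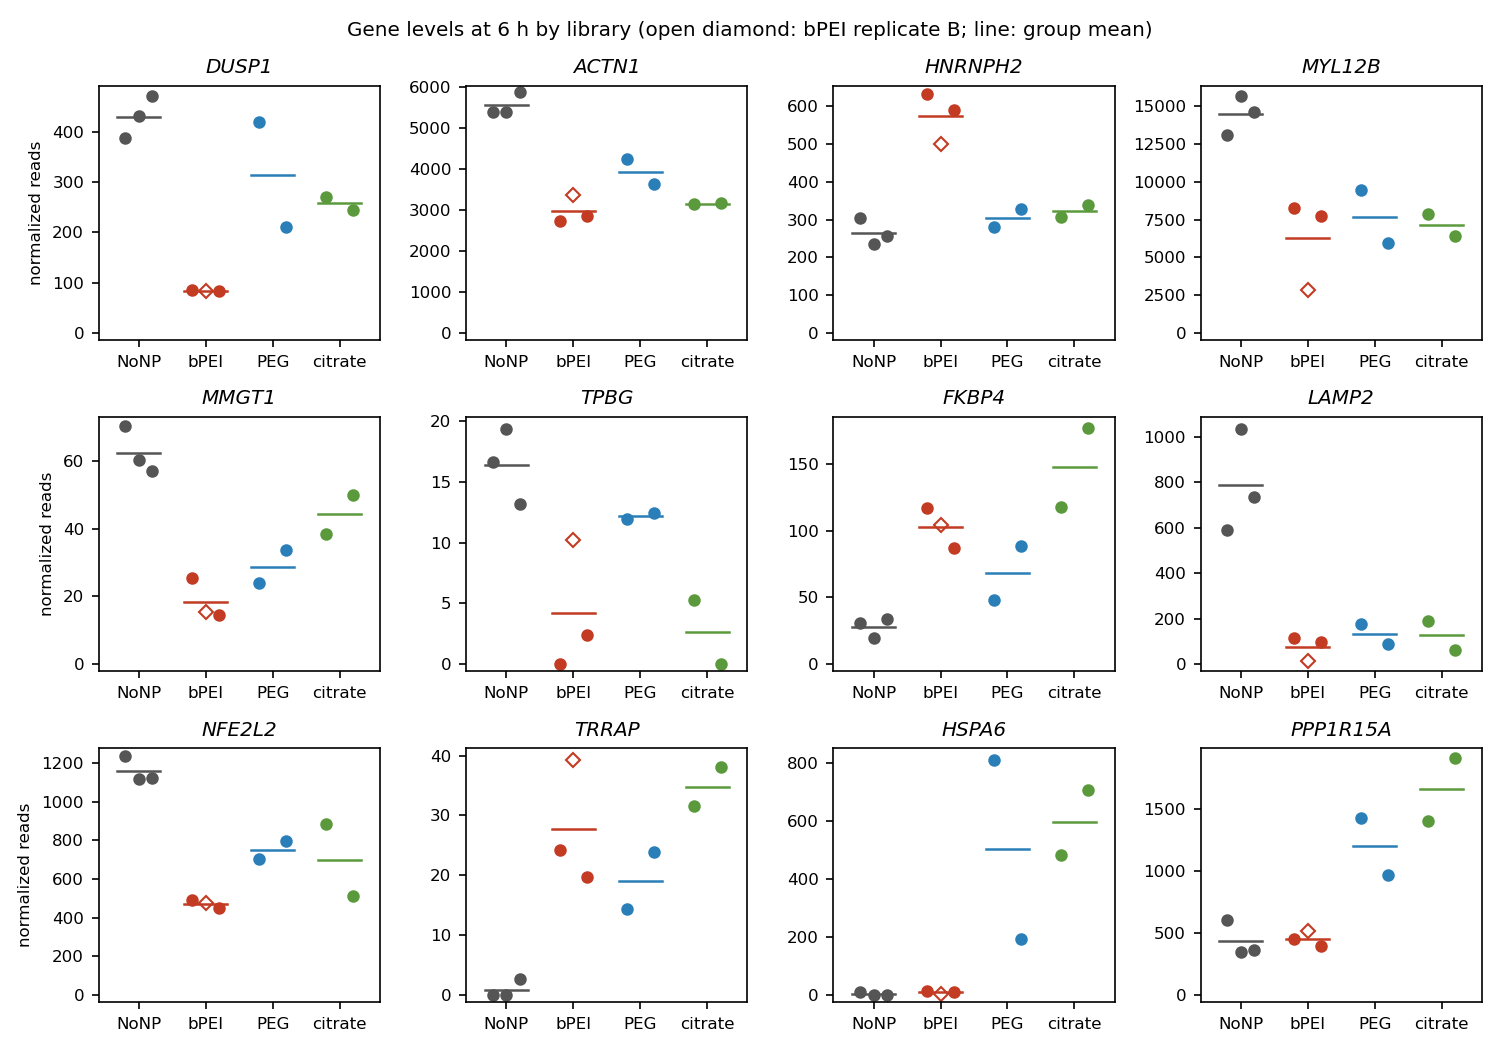
Normalized reads at 6 h (y axis, linear, from 0) of 12 genes in each library of NoNP, bPEI, PEG and citrate (x axis), with a line at each group mean and bPEI replicate B as an open diamond. DUSP1 sits between 82.8 and 84.8 in the 3 bPEI libraries. In MYL12B replicate B lies below A and C. On this axis the bPEI points of HSPA6 and PPP1R15A lie close to NoNP.

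Among genes that rose with all libraries, the largest log2 difference was that of TRRAP, the scaffold subunit of histone acetyltransferase complexes. TRRAP was at 0, 0 and 2.74 in NoNP and 24.2, 39.3 and 19.8 with bPEI, with a limma adjusted p of 0.00564. The bPEI group was 30.4-fold higher, and A and C alone were 24.1-fold higher (limma adjusted p = 0.0727 without replicate B). POLA1, the catalytic subunit of the DNA polymerase that starts new strands, was at 3.83, 0 and 1.10 in NoNP and 25.6, 34.2 and 37.8 with bPEI (limma adjusted p = 0.0405, edgeR 0.0944). In both genes the NoNP libraries were at or near 0 and all 3 bPEI libraries lay well above them. Without replicate B the log2 difference of POLA1 was 3.89, against 3.94 with it.

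Several further rises were of this kind, small in reads and clear of the NoNP libraries. ARMC6 was at 6.39, 8.62 and 1.10 in NoNP and 45.8, 68.4 and 28.2 with bPEI (limma adjusted p = 0.0357, and 0.21 without replicate B). CDC42BPB, a kinase that acts on myosin downstream of CDC42, was at 14.1, 2.15 and 10.4 against 74.1, 42.7 and 47.4 (limma adjusted p = 0.0307, and 0.124 without replicate B). CWC27, a spliceosome-associated protein, was at 0 in all 3 NoNP libraries and at 6.73, 6.84 and 11.4 with bPEI. It was at least 8.51-fold higher, taking 3 reads over the NoNP group as the floor (limma adjusted p = 0.0473, and 0.203 without replicate B), and it passed under 2 of 13 alternatives. In ANKRD36C and FAM65A replicate B carried much of the rise. ANKRD36C was at 88.9 in B and 16.2 and 21.0 in A and C, and reads of this gene may come from its close copies. FAM65A was at 42.7 in B and 10.8 and 11.4 in A and C.

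Other rises had higher counts behind them. ACIN1, a nuclear protein of the exon junction complex, went from 32, 34.5 and 30.2 to 121, 167 and 110 (limma adjusted p = 0.00484, and 0.0552 without replicate B). FKBP4, a co-chaperone of HSP90, was at 30.7, 19.4 and 34.0 in NoNP and 117, 104 and 87.0 with bPEI. Its rise of 3.67-fold was nearly the same in A and C alone, 3.64-fold (limma adjusted p = 0.00564, and 0.0529 without replicate B). AGFG2, a relative of an adaptor of clathrin-coated vesicles, was at 102, 47.4 and 49.9 in NoNP and 279, 419 and 197 with bPEI (limma adjusted p = 0.00564, and 0.0846 without replicate B). MLXIP, a glucose-sensing transcription factor, was at 17.9, 10.8 and 8.78 against 44.4, 120 and 45.6 (limma adjusted p = 0.0388, and 0.307 without replicate B). None of these groups overlapped, but in ACIN1, AGFG2 and MLXIP replicate B was the highest library.

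LAMP2, the glycoprotein that lines the lysosomal membrane and serves chaperone-mediated autophagy, had the largest fall among the called genes. Its level was 588, 1036 and 736 in NoNP and 116, 12.0 and 97.8 with bPEI. Replicates A and C were both well below the lowest NoNP library, and replicate B was lower still. The bPEI group was 10.5-fold lower than NoNP (log2 difference -3.85, limma adjusted p = 0.0256, edgeR 0.00531). Without replicate B the log2 difference was -2.84 with a limma adjusted p of 0.173, while edgeR without it still gave 0.0434. PEG and citrate, set against the same NoNP libraries, gave -2.61 and -2.79 on the log2 scale (limma adjusted p = 0.489 and 0.23).

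Among the other large falls, PLOD3, a lysyl hydroxylase of collagen, was at 8.95, 10.8 and 9.33 in NoNP and at 0 in all 3 bPEI libraries. It was at least 9.66-fold lower, taking 3 reads over the bPEI group as the floor (limma adjusted p = 0.0463, and 0.21 without replicate B, edgeR 0.0708). PARP4 was at 35.8, 38.8 and 21.4 in NoNP against 5.39, 0 and 4.80 (limma adjusted p = 0.0162, and 0.179 without replicate B). YIPF1, a membrane protein of the Golgi, was at 14.1, 36.6 and 23 against 6.73, 1.71 and 0.600 (limma adjusted p = 0.0385, and 0.196 without replicate B). In these genes A and C alone were also clear of all NoNP libraries. NONO, a paraspeckle protein, was at 289, 356 and 69.7 against 61.9, 54.7 and 21.0 (limma adjusted p = 0.039, and 0.138 without replicate B). Its replicate C was the lowest library in both groups, and the lowest NoNP library was close to the highest bPEI library.

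In another set of falls the size rested on replicate B, which was at 0. DYNLT3, a dynein light chain, was at 8.08 and 19.8 in A and C and 28 to 61.4 in NoNP. TMEM184C was at 17.5 and 39.0 in A and C and 59.3 to 89.5 in NoNP. HECTD2, a ubiquitin ligase, was at 29.6 and 23.4 in A and C and 60.9 to 69.0 in NoNP. LSM8, a subunit of the ring that binds U6 RNA, was at 6.73 and 18.6 in A and C and 28 to 48.6 in NoNP. The log2 differences of TMEM184C, HECTD2, LSM8 and DYNLT3 were -2.94, -2.87, -2.86 and -3.00 with replicate B and -1.35, -1.28, -1.65 and -1.74 without it. None of the 4 passed by edgeR, with adjusted p between 0.0609 and 0.112. ZNF280A and MAN2B2, a lysosomal mannosidase, were at 0 in replicate B as well, but their size rested less on it. ZNF280A was at 2.69 and 3.0 in A and C and 10.8 to 25.2 in NoNP, and MAN2B2 at 0 and 4.80 and 7.67 to 15.1. The log2 difference was -2.72 with and -2.08 without replicate B in ZNF280A, and -2.70 and -2.28 in MAN2B2.

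Lysosome and autophagy genes gave 4 lower and 0 higher calls among 38 tested members, against 1.32% lower calls over all tested genes, and 0 limma calls without replicate B, where edgeR called 1, LAMP2. At an unadjusted limma p under 0.05 there were 11 members, all lower, with replicate B and 7 without it. Over all 9324 tested genes these counts were 1774 and 861. The median log2 difference of the list was -0.3495 with replicate B and -0.2607 without it, and -0.007333 and 0.01354 over all tested genes. By library it was -0.3219 in A, -0.491 in B and -0.3142 in C. Against the same NoNP libraries it was -0.2793 with PEG and -0.2122 with citrate. Every bPEI library lay below every NoNP library in 11 of the 38 members and above in 2, beside 11.9% and 12.9% of all tested genes. With library totals made equal, 3 of the 4 passed and the median was -0.2739.

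The 4 lower members were LAMP2, ATP6V1A, ATP6V1D and NPC1. ATP6V1A and ATP6V1D encode subunits of the proton pump that acidifies the lysosome. ATP6V1A was at 169, 183 and 131 in NoNP and 71.4, 39.3 and 56.4 with bPEI (limma adjusted p = 0.00987, and 0.113 without replicate B). ATP6V1D was at 205, 170 and 142 against 59.3, 17.1 and 55.8 (limma adjusted p = 0.0373, and 0.276 without replicate B). In both, A and C were below all NoNP libraries. NPC1, which exports cholesterol from the lysosome, was at 588, 461 and 504 in NoNP and 281, 224 and 277 with bPEI. It fell 1.98-fold with all libraries (limma adjusted p = 0.0381) and was 0.88 lower on the log2 scale in A and C (0.218). Lysosomal size and acidity were not measured. Of 34 genes of endocytosis and vesicle traffic, 1 was higher, AGFG2, and 33 were not called, and the list median was -0.05018. Over all tested genes 0.686% were called higher.

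Sterol and fatty acid genes gave 0 higher and 1 lower call among 25 tested members with replicate B. Over all tested genes 0.686% were called higher and 1.32% lower. Without replicate B 0 passed by limma, and 5 had an unadjusted limma p under 0.05, as did 861 of the 9324 tested genes. The median of the sterol list was -0.07358 under the deposited scaling and 0.002971 with equal totals, so the list as a whole had no direction that both scalings shared.

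Cytosolic ribosomal protein genes gave 7 lower and 0 higher calls with replicate B, 4 of 31 small-subunit genes and 3 of 41 large-subunit genes, beside 1.32% lower calls over all tested genes. Without it 0 passed, and 9 and 8 had an unadjusted limma p under 0.05, where 861 of the 9324 tested genes did. The small-subunit genes included RPS3A, RPS6 and RPS21, and the large-subunit genes were RPL10, RPL30 and RPLP0. RPS3A was at 12482, 11217 and 11204 in NoNP and 7374, 5438 and 7965 with bPEI, a fall of 1.68-fold (limma adjusted p = 0.00733). RPL30 was at 2467, 2368 and 2421 in NoNP and 1079, 405 and 1232 with bPEI (limma adjusted p = 0.0281). In both the groups did not overlap, and replicate B was lowest. Without replicate B the limma adjusted p was 0.113 for RPS3A and 0.196 for RPL30.

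The list medians were -0.2819 for the small and -0.3181 for the large subunit, and -0.1823 and -0.1821 without replicate B. Replicate B carried the lowest values, -0.613 and -0.5787, against -0.2867 and -0.1994 in A and -0.2406 and -0.1543 in C. Against the same NoNP libraries the medians were -0.1544 and -0.1988 with PEG and -0.05435 and -0.1667 with citrate. With equal library totals 1 gene of each subunit passed, and the medians were -0.2053 and -0.2416. Many ribosomal protein genes have processed copies in the genome, so reads of single members are uncertain. Of 31 translation factors 0 passed by limma and by edgeR. With replicate B 9 had an unadjusted limma p under 0.05, as did 1774 of the 9324 tested genes. EIF3H had the smallest p, with 1365, 1467 and 1365 in NoNP and 951, 535 and 1127 with bPEI (limma adjusted p = 0.0547).

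Genes of NRF2 and antioxidant defence gave 3 lower and 0 higher calls among 32 tested members with replicate B, beside 1.32% lower calls over all tested genes. Without it 0 passed. At an unadjusted limma p under 0.05 there were 13 of the 32 with replicate B and 6 without it, where 1774 and 861 of the 9324 tested genes were. The called genes were NFE2L2, which encodes NRF2 itself, NQO1, a quinone reductase and standard NRF2 target, and GPX2, a glutathione peroxidase. NFE2L2 was at 1237, 1116 and 1119 in NoNP and 492, 475 and 449 with bPEI. The 3 bPEI libraries were within a narrow range and well below NoNP, and replicate B lay between A and C. The fall was 2.45-fold, and the log2 difference was -1.29 with replicate B (limma adjusted p = 0.039) and -1.30 without it (0.181). For the same levels edgeR gave 0.034. NFE2L2 did not pass with equal library totals.

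NQO1 was at 7483, 8250 and 7156 in NoNP and 5151, 4028 and 4990 with bPEI, a fall of 1.62-fold (limma adjusted p = 0.0473, and 0.281 without replicate B). GPX2 was at 266, 437 and 349 against 167, 83.7 and 146, a fall of 2.65-fold (limma adjusted p = 0.0449, and 0.309 without replicate B). TXNRD2, the mitochondrial thioredoxin reductase, which was named among the largest falls, was at 55.0, 38.8 and 54.3 against 6.73, 8.55 and 12.0 (limma adjusted p = 0.0373, and 0.173 without replicate B). In each the groups did not overlap. NQO1 and GPX2 did not pass with equal library totals, under which none of the 32 members did. The list median was -0.06006 with and 0.009118 without replicate B.

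The usual reporters of metal and protein stress did not pass the threshold with bPEI at 6 h. HSPA6, the strictly inducible HSP70, was at 8.95, 0 and 0.549 in NoNP and 14.8, 3.42 and 11.4 with bPEI (limma adjusted p = 0.257). Its log2 difference was 1.94, and 2.49 without replicate B (limma adjusted p = 0.424), with A and C above every NoNP library. HSPA1B was at 152, 142 and 123 against 186, 90.6 and 135, and its reads cannot be told from those of its near-identical copy HSPA1A. DNAJB1, an HSP40 co-chaperone, was at 12.8, 25.9 and 11 against 45.8, 56.4 and 34.8 (limma adjusted p = 0.287). The DNAJB1 groups did not overlap, and the log2 difference was 1.48 with a SE of 0.76. Of 21 tested heat shock chaperones, 1 was higher, FKBP4, and 20 were not called, where 0.686% of all tested genes were called higher. With replicate B 7 members had an unadjusted limma p under 0.05 (4 higher, 3 lower), beside 1774 of the 9324 tested genes. The list median was -0.03449 with replicate B and 0.1727 without it.

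Among metal genes, 0 of 17 tested members passed by limma and by edgeR. With replicate B 6 had an unadjusted limma p under 0.05 (2 higher, 4 lower), beside 1774 of the 9324 tested genes. The metallothionein MT2A was at 40.9, 88.3 and 65.8 in NoNP and 83.5, 70.1 and 67.8 with bPEI, and these ranges overlapped. MT1X was below the level tested, at 0, 0 and 7.13 in NoNP and 0 in every bPEI library. Metallothionein genes resemble each other closely, so their reads may be shared. The NRF2 targets HMOX1, a haem oxygenase (792, 534 and 507 against 681, 499 and 473), and SRXN1, a sulfiredoxin (97.1, 138 and 112 against 172, 161 and 137), did not pass. TXNRD1 was at 176, 237 and 224 in NoNP and 252, 121 and 260 with bPEI, so replicate B lay on the other side of NoNP from A and C. GCLM, the modifier subunit of glutathione synthesis, was at 1355, 1282 and 1085 against 844, 246 and 845 (limma adjusted p = 0.06).

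The integrated stress response gave 0 calls among 22 tested genes, by limma and by edgeR. At an unadjusted limma p under 0.05 there were 4 of them, all lower, beside 1774 of the 9324 tested genes. DDIT3, a factor of that response which promotes cell death, was at 259, 259 and 189 in NoNP and 176, 106 and 125 with bPEI, lower in all 3 libraries than the lowest NoNP library (limma adjusted p = 0.169). PPP1R15A, which lifts the block on translation, was at 605, 345 and 363 in NoNP and 451, 518 and 391 with bPEI, with overlapping groups (log2 difference 0.09, SE 0.27). GDF15, a secreted stress hormone, was at 3666, 3096 and 3447 against 2421, 3681 and 2298, so replicates A and C lay below the NoNP range and replicate B just above it. ATF3 was below the level tested, at 5.11, 2.15 and 5.49 in NoNP and 0 in every bPEI library. Of 23 genes of the unfolded protein response and 22 p53 targets, 0 passed by limma and by edgeR. Of these, 5 and 3 had an unadjusted limma p under 0.05, again beside 1774 of the 9324 tested genes.

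Respiratory chain and ATP synthase genes gave 2 higher and 1 lower calls among 44 tested with replicate B, beside 0.686% and 1.32% over all tested genes. Without it 0 passed by limma, and 7 had an unadjusted limma p under 0.05, as did 861 of the 9324 tested genes. ATP5H, a stalk subunit of ATP synthase, was at 570, 569 and 463 against 882, 1183 and 929 (limma adjusted p = 0.0256, and 0.179 without replicate B). It rose with no overlap of the groups. COX7A2, a small subunit of cytochrome oxidase, fell, but its level of 3.42 in replicate B stood far from 57.9 and 38.4 in A and C, and its log2 difference was -2.13 with and -0.98 without that library. The higher calls of the list went opposite to the list median, which was -0.3752 with replicate B and -0.1257 without it, since 36 of 44 members were below 0. By library the median was -0.1397 in A, -0.7163 in B and -0.1125 in C. Against the same NoNP libraries it was -0.3949 with PEG and -0.2043 with citrate.

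DNA replication and G1/S genes gave 2 higher calls, POLA1 and POLD2, and 1 lower, CDK4, among 33 tested with replicate B, beside 0.686% and 1.32% over all tested genes, and 0 by limma without it. POLD2, a subunit of DNA polymerase delta, was at 26.8, 17.2 and 33.5 in NoNP and 108, 135 and 99.6 with bPEI (limma adjusted p = 0.0256, and 0.155 without replicate B). CDK4, the cyclin D kinase, was at 5884, 5524 and 4993 against 4056, 1482 and 3518 (limma adjusted p = 0.0256), and its log2 difference was -0.98 with replicate B and -0.53 without it (0.254). Both were without overlap, and the fall of CDK4 was largest in replicate B. The median of the list was 0.2257 with replicate B and 0.3798 without it, and 23 of 33 members were above 0 with it and 28 without it. Every bPEI library lay above every NoNP library in 10 of the 33 members and below in 1, beside 12.9% and 11.9% of all tested genes. Of 27 G2/M and mitosis genes 0 passed by limma and by edgeR. With replicate B 4 had an unadjusted limma p under 0.05, as did 1774 of the 9324 tested genes. The list median by library was -0.1697 in A, -0.6683 in B and 0.2339 in C. PLK1, a mitotic kinase, had the smallest p there, at 83.1, 177 and 169 in NoNP and 279, 296 and 413 with bPEI (limma adjusted p = 0.051).

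The chromatin list had 1 higher call, TRRAP, among 27 tested genes, beside 0.686% higher over all tested genes. Its median was 0.402 with replicate B and 0.1505 without it, and replicate B was highest with 0.6207 against 0.2205 in A and 0.1682 in C. Matrix, adhesion and YAP or TGF beta target genes gave 3 lower calls among 27, ACTN1, ANKRD1 and TIMP1. Over all tested genes 1.32% were called lower. ANKRD1, a YAP target, was at 3828, 4270 and 3953 in NoNP and 1752, 767 and 2039 with bPEI (limma adjusted p = 0.0364, and 0.254 without replicate B). TIMP1, an inhibitor of matrix proteases, was at 262, 362 and 420 against 186, 113 and 197 (limma adjusted p = 0.039, and 0.307 without replicate B). Neither overlapped, while the median of the list was above 0, at 0.2159. Without replicate B only ACTN1 of these passed.

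The lists of inflammatory, acute phase and splicing genes gave single calls. All were lower, where 1.32% of all tested genes were called lower. CCL20, a chemokine, was the only call of 13 NF-kB genes, at 2260, 2803 and 2268 in NoNP and 1353, 805 and 1375 with bPEI (limma adjusted p = 0.0473, and 0.343 without replicate B). Complement C3 was the only call of 29 acute phase genes, at 3152, 2652 and 2350 against 2179, 1111 and 1841 (limma adjusted p = 0.0473). The log2 difference of C3 was -0.71 with replicate B and -0.43 without it (0.44). Both fell without overlap and did not pass with equal library totals. SAA2-SAA4, outside the acute phase list, was also called lower (limma adjusted p = 0.0487, and 0.47 without replicate B). SNRPD2, a core protein of spliceosomal particles, was the only call of 37 splicing genes, at 412, 405 and 468 against 249, 132 and 358 (limma adjusted p = 0.0473, edgeR 0.0901). The log2 difference of SNRPD2 was -0.91 with replicate B and -0.52 without it (limma adjusted p = 0.47), and it did not pass with equal library totals. Splicing genes outside that list were called in both directions, among them HNRNPH2, CWC27, ACIN1, SNRNP70 and SRSF4 higher and LSM8 lower. SNRNP70 was at 107, 51.7 and 94.9 in NoNP and 197, 355 and 191 with bPEI (limma adjusted p = 0.0364, and 0.254 without replicate B). SRSF4 was at 297, 213 and 224 against 459, 1190 and 431 (limma adjusted p = 0.0473, and 0.402 without replicate B). Of 25 proteasome, 22 cell death, 22 glycolysis and 18 drug metabolism genes, 0 passed by limma or by edgeR. With replicate B 10, 5, 6 and 9 had an unadjusted limma p under 0.05, beside 1774 of the 9324 tested genes.

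**Figure D3:**
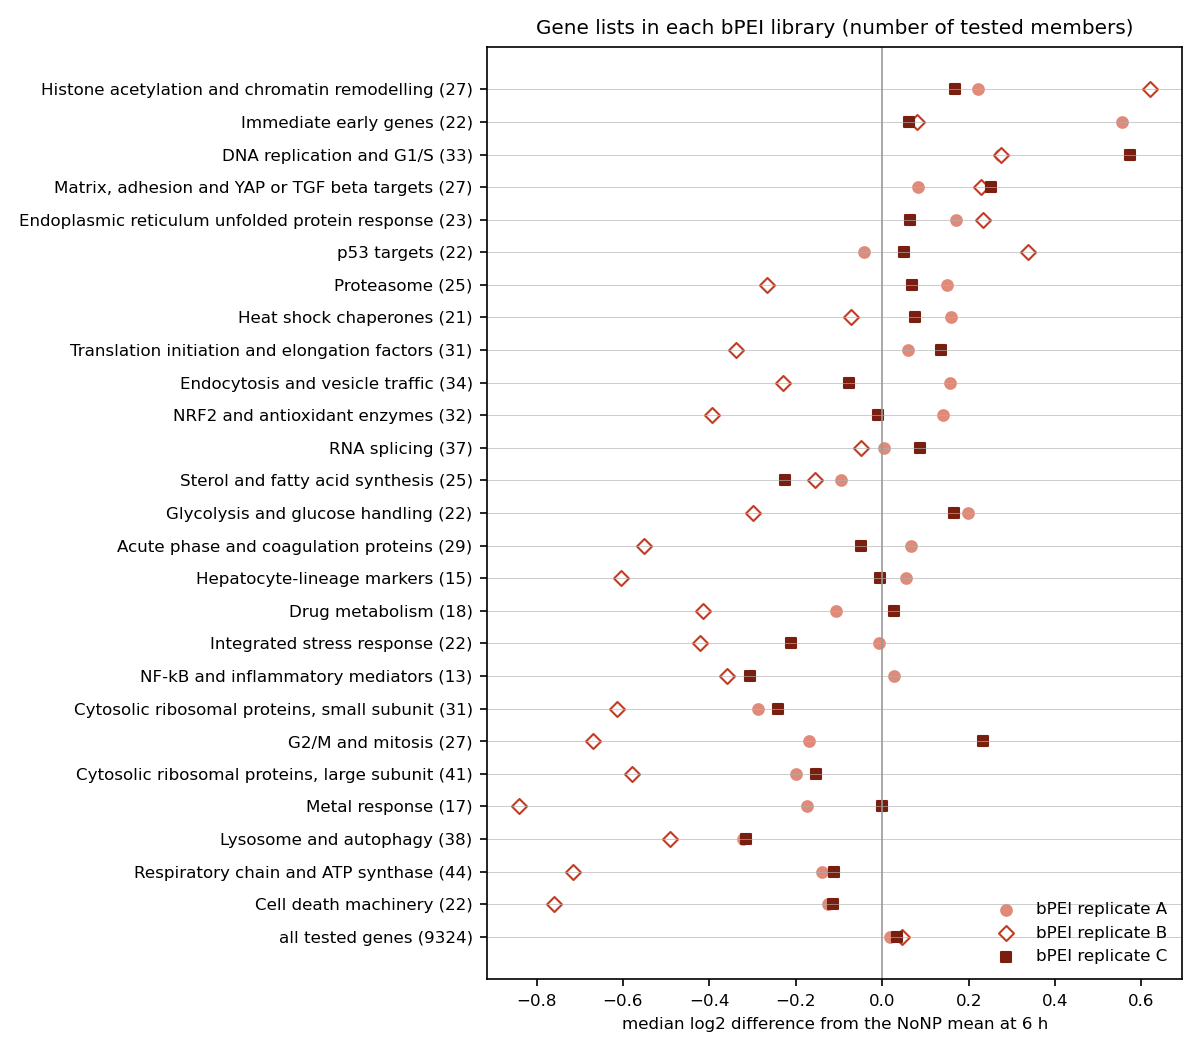
Median log2 difference from the NoNP mean at 6 h (x axis) of each gene list (y axis, with the number of tested members) in bPEI replicates A, B and C. Replicate B, the open diamond, lies left of A and C in most lists, as in metal response at -0.841, while in the lysosome list A and C are at -0.3219 and -0.3142.

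The markers of the cell line were those of a hepatocyte lineage in every library. Of 16 hepatocyte markers 15 were tested, and 0 passed by limma and by edgeR. With replicate B 7 had an unadjusted limma p under 0.05, as did 1774 of the 9324 tested genes. Their summed level was 418900 to 459000 in NoNP and 343400 to 465300 with bPEI, and replicate B had the lowest sum. The median log2 difference of these markers was 0.05539 in A, -0.6041 in B and -0.005295 in C. AFP, the fetal albumin relative, was at 7609, 7923 and 6425 in NoNP and 4078, 1104 and 4439 with bPEI, lower in each bPEI library (limma adjusted p = 0.0688). In bulk lysates fewer cells of a type and less RNA per cell cannot be told apart.

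Markers of other cell types were few. Of 12 blood markers 6 were measured, with a summed level of 3954 to 4378 in NoNP and 1885 to 3178 with bPEI, nearly all from LYZ (mean 3292). Their 4 tested members gave 0 higher and 1 lower call, CD3D, where 1.32% of all tested genes were called lower. CD3D was at 12.8, 15.1 and 12.1 in NoNP and 5.39, 0 and 7.20 with bPEI. Of 12 fibroblast and endothelial markers 7 were measured, with a summed level of 142.7 to 249.2 in NoNP and 173.4 to 245.1 with bPEI, and COL3A1 was at 0 in all 6 libraries. The part of these levels in the results above was not tested.

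Whether a difference went with the bPEI coating was tested at 6 h against the mean of the PEG and citrate groups, a difference that does not use the NoNP levels. With all libraries 12 genes passed, 0.129% of those tested, 1 higher with bPEI and 11 lower. Without bPEI replicate B 16 passed, 9 of them shared. By edgeR 13 passed. Without PEG replicate A or C 3 and 24 passed, and without bPEI replicate A or C 20 and 39. The single higher gene was HNRNPH2, which was at 281 and 328 with PEG and 306 and 339 with citrate, below the 501 to 634 of the bPEI libraries (log2 difference 0.87, 95% interval 0.50 to 1.24, limma adjusted p = 0.0303). DUSP1 was at 419 and 211 with PEG and 271 and 245 with citrate, and lower with bPEI by 1.71 on the log2 scale (interval -2.33 to -1.09, limma adjusted p = 0.00389). In both genes the bPEI libraries overlapped with neither the medium nor the other coatings.

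Other genes set bPEI apart because the other coatings were high and bPEI was near the medium level. HSPA6 was at 812 and 195 with PEG and 485 and 709 with citrate, against 3.42 to 14.8 with bPEI. The log2 difference was -5.67 (95% interval -7.45 to -3.88, limma adjusted p = 0.00123, and 0.0223 without replicate B). PPP1R15A was at 1422 and 968 with PEG and 1399 and 1909 with citrate, against 391 to 518 with bPEI (log2 difference -1.62, interval -2.13 to -1.11, limma adjusted p = 0.00123). In neither gene did a bPEI library overlap with a PEG or citrate library. HBEGF, a growth factor of the EGF family, was at 398 and 219 with PEG, 343 and 452 with citrate and 121 to 144 with bPEI (limma adjusted p = 0.00342). PCK1, the key enzyme of gluconeogenesis, was at 386 and 245 with PEG, 313 and 198 with citrate and 21.6 to 36.4 with bPEI (limma adjusted p = 0.00389). For HSPA6, HBEGF, PCK1 and PPP1R15A the bPEI level did not differ from NoNP by the threshold.

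Upstream sequences of HSPA6 and PPP1R15A are shown because these genes had the smallest adjusted p in the comparison of coatings. They come from RefSeq (GRCh38.p14): HSPA6 from chr1:161524345-161524493, plus strand, bases -195 to -47 from the annotated start, and PPP1R15A from chr19:48872348-48872385, plus strand, bases -73 to -36. In HSPA6 the capitals mark inverted heat shock repeats, GAANNTTC, at -180 to -173 and -69 to -62. In PPP1R15A they mark the cAMP response element, TGACGTCA, at -58 to -51.
HSPA6: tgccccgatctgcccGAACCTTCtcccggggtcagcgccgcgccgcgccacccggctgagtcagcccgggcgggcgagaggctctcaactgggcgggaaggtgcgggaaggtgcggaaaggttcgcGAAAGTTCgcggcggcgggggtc
PPP1R15A: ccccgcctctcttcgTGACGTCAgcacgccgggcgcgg
GAANNTTC was in 2030 of the 35116 promoters (5.78%), on either strand of the same 250 bases. The element marked in PPP1R15A has the same letters as that in DUSP1.

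Of the remaining genes of this comparison, ID1, an inhibitor of helix-loop-helix factors, was at 4311, 4641 and 5076 in NoNP, 2374, 2013 and 2646 with bPEI, 5209 and 4318 with PEG and 6187 and 6099 with citrate. It fell against the medium (limma adjusted p = 0.0126, and 0.113 without replicate B) and was lower than with the other coatings (0.00139). MAN2B2 was at 7.67, 15.1 and 10.4 in NoNP, 0, 0 and 4.80 with bPEI, 7.15 and 9.21 with PEG and 21.0 and 26.9 with citrate. It was lower than with the other coatings (limma adjusted p = 0.0279, and 0.218 without replicate B). Against the medium it was lower too (0.0364, and 0.254 without replicate B). The last 4 genes, DNAJB6, IL1RL1, MYC and TRIB1, were outside the naming rule and were chosen after their values were seen. TRIB1, a pseudokinase, was at 578, 623 and 642 in NoNP, 386, 296 and 374 with bPEI and 519 to 867 with PEG or citrate. It was lower than with the other coatings (limma adjusted p = 0.00389) and lower than the medium (0.0335, and 0.21 without replicate B). MYC was at 891, 706 and 754 with bPEI and 1062 to 1810 with the others (limma adjusted p = 0.0303, and 0.135 without replicate B). Against the medium MYC did not pass (log2 difference -0.04, limma adjusted p = 0.939). DNAJB6, an HSP40 co-chaperone, was at 101, 58.2 and 61.4 in NoNP, 48.5, 12.0 and 25.8 with bPEI and 66.8 to 103 with the others. It was lower than with the other coatings (limma adjusted p = 0.0175, and 0.239 without replicate B). Against the medium it was lower too (0.0364, and 0.343 without replicate B). IL1RL1, the receptor of interleukin 33, was at 0 in all bPEI and NoNP libraries and at 23.8, 16.1, 40.3 and 11.1 with PEG and citrate.

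The comparisons of each coating with NoNP at 6 h share the NoNP libraries, so their values are set side by side and not correlated. With PEG 2 genes passed and with citrate 26, from 2 libraries each. FKBP4 differed from NoNP by 1.87 on the log2 scale with bPEI, 1.22 with PEG and 2.36 with citrate, and TRRAP by 4.15, 3.65 and 4.52. ACTN1 differed by -0.90, -0.50 and -0.82. NFE2L2 differed by -1.29, -0.63 and -0.78. Because these genes were chosen from the bPEI calls and the NoNP libraries are shared, nothing is read from the signs. The difference between bPEI and the mean of PEG and citrate did not pass the threshold in these genes, which does not show that the coatings act alike.

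The change with bPEI at 6 h was also tested against that at 12 h, each relative to its own NoNP libraries. 1 gene passed, AGFG2, or 0.0107% of those tested, and at an unadjusted p under 0.05 there were 907. AGFG2 was at 105, 161 and 84.0 in NoNP at 12 h and at 61.3, 57.1 and 35.7 with bPEI, so it was above NoNP at 6 h and below it at 12 h. The difference of the changes was 3.32 (95% interval 2.15 to 4.49, limma adjusted p = 0.0187), and 3.04 without bPEI replicate B (0.0461). The count was 0 without NoNP replicate B or C at 6 h, NoNP replicate A or B at 12 h, or bPEI replicate C at 12 h. Without bPEI replicate B of 6 h ACTN1 passed beside AGFG2, with a difference of -1.15 (limma adjusted p = 0.0322, against 0.0628 with it). ACTN1 was at 3245, 2717 and 3610 in NoNP and 3604, 3400 and 3613 with bPEI at 12 h, and each NoNP library was lower than any at 6 h. ADGRG6, an adhesion receptor, fell at 6 h (47.3, 99.1 and 67.5 in NoNP against 32.3, 6.84 and 17.4, limma adjusted p = 0.00549) and was at 74.2, 61.2 and 76.1 against 95, 93.4 and 102 at 12 h. The test of its change between times gave an adjusted p of 0.0669.

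For the remaining genes of the 6 h comparison, a difference between the times was not shown. DUSP1 was at 583, 634 and 358 in NoNP and 385, 453 and 379 with bPEI at 12 h, with overlapping groups and a log2 difference of -0.33. The test of its change between times gave a limma adjusted p of 0.137. HNRNPH2 was still higher at 12 h in every bPEI library, 371, 429 and 374 against 227, 202 and 249, though its adjusted p at that time was 0.108. LAMP2 differed by -0.33 at 12 h and FKBP4 by -0.46. POLD2 passed at 12 h too, with a log2 difference of 2.55 (limma adjusted p = 0.0339), and was 1 of 9 genes called then.

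**Figure D4:**
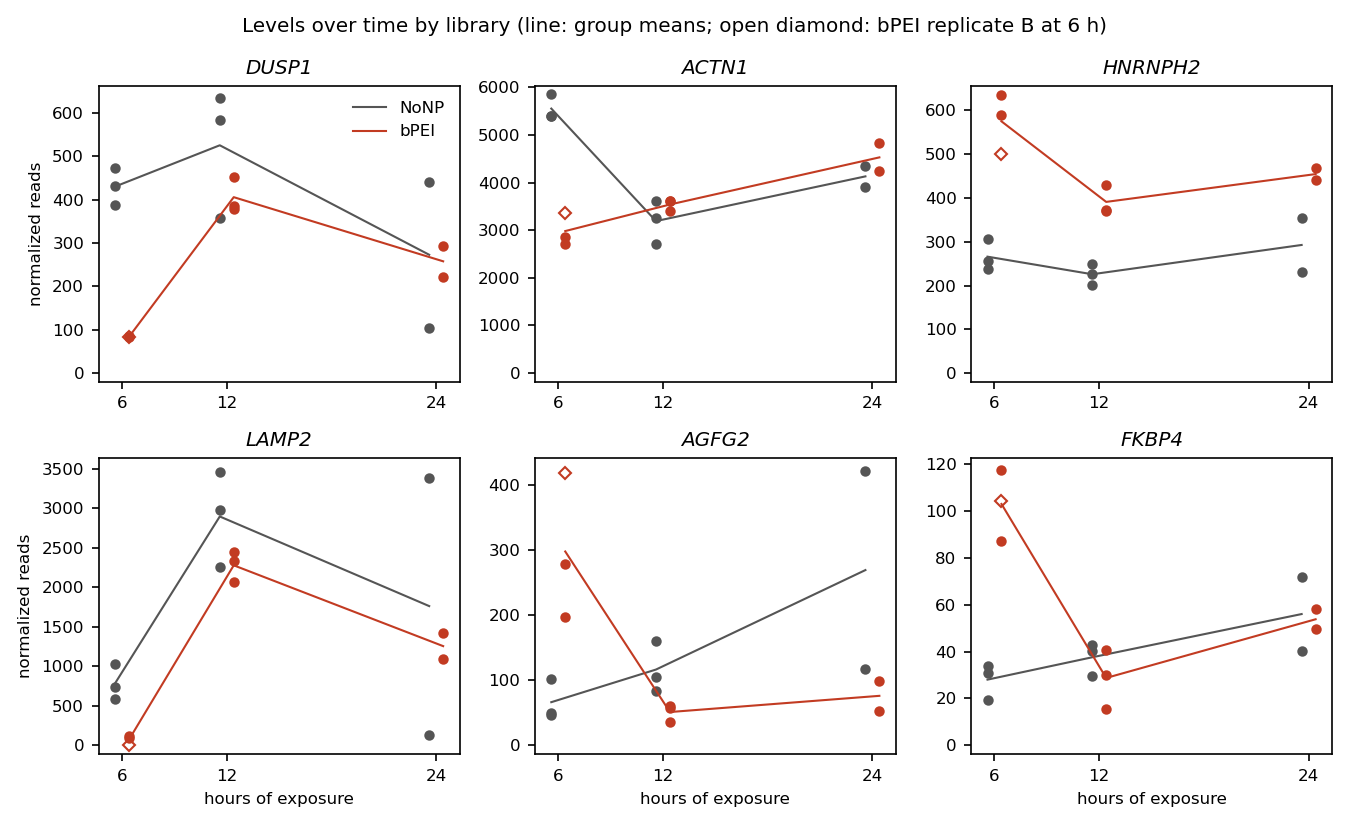
Normalized reads (y axis, linear, from 0) of 6 genes against hours of exposure (x axis) in NoNP and bPEI, with 1 point per library and a line through the group means. DUSP1 with bPEI is near 84 at 6 h and at 379 to 453 at 12 h, AGFG2 lies above NoNP at 6 h only, and HNRNPH2 lies above NoNP at all 3 times.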

How the data were processed

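Per the labels' protocols, HepG2 lysates were measured with TempO-Seq. The authors deposited 1 table of normalized signal values for 13133 genes in 32 libraries. Dividing by the lowest positive value of a library turned 100% of the deposited signal values into whole reads (tolerance 0.01), and the library factors equalled median-of-ratios size factors. No source used here names the aligner, the genome build or how probes were combined to genes. The 6 h libraries held 1490319 to 5739074 reads.

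Values were taken to log2 after adding 1. limma (3.58.1, R 4.3.3; trend, robust) fitted 12 group means of exposure and time to all 32 libraries, which share 1 estimate of the spread (20 residual degrees of freedom). Genes with a mean of at least 5 were tested, 9324, and 3809 were left out. Benjamini-Hochberg adjustment ran over all tested genes of a comparison, with a threshold of 0.05. The fit was repeated without bPEI replicate B, leaving 2 bPEI libraries whose spread is taken from all groups. edgeR (4.0.16) quasi-likelihood tests on the recovered reads gave a second set of calls (common biological coefficient of variation 0.35). Folds are ratios of group means, and log2 differences are on the log2(value + 1) scale, which understates the change of low genes. A group with 0 reads was set to 3 reads over the group. Within the NoNP and bPEI groups at 6 h, no pair of replicate libraries was within sampling noise (mean chi-square per gene 4.199 to 40.83). Pairs of the other groups were not examined. The fits were tested on simulated data.

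The named genes were the 10 largest rises and falls among called genes without overlap, the genes called without bPEI replicate B, the 8 largest rises and falls by the difference without it among called genes with A and C beyond all NoNP libraries, up to 4 members of each of 28 lists with the smallest p, 13 stress and metal reporters, and the 5 smallest p in the coating and time comparisons. Of these, the text gives those with a call, the reporters and some examples, and a few genes are not reported here. The comparison, gene lists, tests and naming rule were chosen with earlier results of these data known. Lists were described by counts and medians and not tested. Promoters are from RefSeq, matched by symbol for 3 genes. The alternatives were a pseudocount of 5, no filter on low values, a minimum mean of 20, library totals made equal, the replicate letter as a block, edgeR, the libraries compared alone, each library left out, and bPEI replicate B and NoNP replicate B at 24 h left out together.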

Additional observations from a re-analysis of the deposited data

Results flagged for a closer look

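For 12 genes the effect of bPEI at 6 h differed from the mean effect of PEG and citrate by limma's test of that difference (log2 scale, bPEI minus the others). In HSPA6 the difference was -5.67, in IL1RL1 -4.42, in PCK1 -3.36 and in MAN2B2 -3.07. It was -1.75 in DNAJB6, -1.71 in DUSP1, -1.62 in PPP1R15A, -1.33 in HBEGF, -1.21 in ID1, -1.04 in TRIB1 and -0.87 in MYC. HNRNPH2 was the single gene with a higher level under bPEI, by 0.87. The fitted value of IL1RL1 depends on the added 1, because it was at 0 in all bPEI libraries.

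The change of AGFG2 with bPEI was higher at 6 h than at 12 h by 3.32 on the log2 scale, by limma's test of the difference of changes.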

How the results depend on the processing

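The number of genes called between bPEI and NoNP at 6 h, 187, rested on which libraries entered. It was 1 when only the 6 libraries compared were fitted and 108 without both bPEI replicate B and NoNP replicate B of 24 h, and leaving out 1 library at a time gave 6 to 569. It was 34, 11 and 26 without NoNP replicate A, B and C, and 553, 6 and 569 without bPEI replicate A, B and C. Without bPEI replicate B the count of 6 became 344 when only the libraries compared were fitted and 108 without NoNP replicate B of 24 h too, and 1 to 6 when a further library was left out. The 12 genes of the coating comparison became 23 with no filter, 26 without both libraries and 3 to 39 with 1 library left out (3 without PEG replicate A, 39 without bPEI replicate C). The 1 gene of the time comparison became 3 with a mean of at least 20, 7 without both libraries and 0 to 2 with 1 library left out (0 without NoNP replicate B or C at 6 h, NoNP A or B at 12 h, or bPEI C at 12 h). The cause was not tested. With the replicate block the counts were 277, 9, 12 and 1. Same-letter deviations of the 6 h NoNP and bPEI libraries correlated at -0.0305, -0.0867 and 0.00182 across genes. The other groups were not compared in this way, so pairing by letter over the series was not tested. Pseudocount 5 gave 202, no filter 145 and a mean of at least 20 gave 277.

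Some reporters that were not called changed sign (log2 differences). HMOX1 became 0.06302 without NoNP replicate A and ranged from -0.3013 to 0.06302 with 1 library left out, and MT2A ranged from -0.0532 to 0.4929. HSPA1B became 0.001575 with equal totals and 0.192 without bPEI replicate B, also when both libraries were left out, with a range of -0.3223 to 0.192. PPP1R15A became -0.01057 without bPEI replicate B or both libraries, -0.0567 without NoNP replicate B and -0.02024 without NoNP replicate C, and reached 0.3476 without NoNP replicate A. TXNRD1 became 0.0031 by edgeR, 0.2781 without bPEI replicate B or both libraries and 0.00601 without NoNP replicate B, and was -0.2678 without bPEI replicate C. Over single genes and alternatives, 586 values kept their direction and their side of the threshold, 326 were no longer past it and 4 newly passed it.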

Other observations

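Further genes among the 187 are given here as values, chosen after their values were seen and with no test of a group. None passed by limma without bPEI replicate B. Several act on actin and myosin. PAK2, a kinase downstream of CDC42 and RAC, was at 689, 812 and 719 normalized reads in NoNP and 399, 174 and 325 with bPEI (limma adjusted p = 0.00564, and 0.102 without bPEI replicate B). PPP1R12A, the targeting subunit of myosin phosphatase, was at 133, 106 and 143 against 87.5, 17.1 and 43.8. ARPC2, of the complex that nucleates branched actin, was at 2784, 2241 and 2529 against 1678, 776 and 1544. KANK1 was higher, at 105, 106 and 79.0 against 210, 210 and 201, and so was the actin bundler ESPN, at 211, 175 and 254 against 444, 593 and 510. None of these groups overlapped.

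Glutathione synthetase GSS was at 346, 328 and 360 in NoNP and 175, 167 and 179 with bPEI. Replicate B was close to A and C. EMC4, of the same endoplasmic reticulum complex as MMGT1, was at 98.4, 144 and 152 against 33.7, 15.4 and 64.2. The nuclear import factors KPNA2 (1163, 1332 and 1298 against 663, 655 and 655) and NUTF2 (349, 347 and 370 against 163, 181 and 234) were lower. DHRS2, a short-chain dehydrogenase, was higher, at 4494, 4904 and 4972 against 9121, 9281 and 11987, and DDX41, an RNA helicase, at 90.8, 71.1 and 109 against 250, 238 and 246. MKI67, the proliferation marker Ki-67, was at 213, 166 and 191 against 400, 1516 and 476, with the log2 difference at 1.80 with and 1.20 without replicate B.

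Other lower genes of the lysosome and of ATP synthase were outside the lists. LAPTM4A, a lysosomal membrane protein, was at 2625, 3090 and 2745 against 1763, 458 and 1914 (limma adjusted p = 0.0364, edgeR 0.0573), and its log2 difference was -1.28 with replicate B and -0.61 without it (limma adjusted p = 0.253). ATP5E was at 24227, 26487 and 24803 against 17315, 13531 and 17805, and ATP5I at 4610, 4643 and 4219 against 3235, 2612 and 3454, both without overlap.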
